A study of Mus musculus with 10 samples.

Results

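The 38 genes described here encode proteins of DNA replication and of mitosis, and their RNA serves as a readout of dividing cells in a tissue. They were taken by symbol from a list set for this work, not by a rule on their measured values. That list was written with earlier results of these data known. All 38 were found among the 33347 genes of the count table. The replication class holds 12 genes (Pcna, Mcm2 to Mcm7, Rrm1, Rrm2, Tyms, Tk1 and Lig1) and the mitosis class the other 26. The RNA came from whole lung tissue of mice of the genotype WT in which bleomycin, a drug used to produce lung injury and fibrosis, had been given. All of these lungs had also received transferred bone marrow cells. For 5 of the 10 libraries the cells had high aldehyde dehydrogenase activity (ALDHbr), an enzyme activity used to sort stem and progenitor cells of the marrow, and for the other 5 low activity (ALDHdim). The comparison therefore asks how the lungs of the ALDHbr and ALDHdim recipients differed, with bleomycin and a cell transfer on both sides. The labels give no age, dose or time for the groups, and lungs without bleomycin or without transferred cells were not analysed here.

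Before a cell divides, it copies its DNA in S phase. The MCM2 to MCM7 proteins form the ring-shaped helicase that opens the double strand, PCNA is the sliding clamp that holds the polymerases on it, LIG1 joins the new fragments, and RRM1, RRM2, TYMS and TK1 make the nucleotides. In G2 phase and mitosis, CDK1 with cyclins A and B starts the process, condensin and topoisomerase II shape the chromosomes, kinetochore and spindle proteins move them, and APC/C with CDC20 and UBE2C lets them separate. Transcription of the S phase genes is classically tied to E2F sites in their promoters, and that of the G2 and mitosis genes to the cell cycle homology region, or CHR, and to CCAAT boxes. In an injured lung, epithelial cells, fibroblasts, endothelial cells and recruited or resident macrophages can all divide, and bulk RNA does not separate them.

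The libraries held between 588063 (ALDHbr library 2) and 2002947 (ALDHdim library 2) counts assigned to genes. BRB-seq, the method used, tags the 3' end of each RNA with a sample barcode and amplifies all samples of a pool together. Levels are given as CPM, the counts of a gene scaled to a common library size with trimmed mean of M values factors. Since they are not per length, CPM was used to pick genes for description and not to say which gene is expressed more. The lung epithelium markers Sftpc, Sftpb, Scgb1a1 and Ager summed to between 31904 and 86434 CPM, so the labelled tissue carried its defining RNA in every library. Both libraries numbered 2 stood apart from the other 8 in the member genes, and the results that rest on them are given with and without them. No label says that the libraries of a group came from separate animals. The p-values therefore rest on the spread among these libraries, part of which may be technical.

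Of the 38 genes, 32 had a promoter in the RefSeq table of the GRCm38.p6 assembly, with 36 promoters in all, each running from 250 bases before the start of transcription to 50 bases after it. Genes whose promoters are shown were picked because they carry the elements that differ between the classes. All but Mcm5 also varied closely with the other members over the libraries. The promoters of 6 mitosis genes and 2 replication genes are shown from 200 bases before to 30 bases after the start. They read 5' to 3' along the gene's own strand, and capitals mark E2F (TTTCGCGC, TTTGGCGC, TTTCCCGC or TTTGCCGC), CHR (TTTGAA or TTCGAA) and CCAAT matches on either strand. A CCAAT match on the other strand therefore reads ATTGG, and TTCGAA is its own reverse complement. The mitosis promoters lie at chr7:135716350-135716579 on the minus strand (Mki67), chr11:99024160-99024389 on the minus strand (Top2a), chr2:164769729-164769958 on the plus strand (Ube2c), chr10:69352883-69353112 on the minus strand (Cdk1), chr9:70421525-70421754 on the minus strand (Ccnb2) and chr4:118437314-118437543 on the minus strand (Cdc20).
Mki67: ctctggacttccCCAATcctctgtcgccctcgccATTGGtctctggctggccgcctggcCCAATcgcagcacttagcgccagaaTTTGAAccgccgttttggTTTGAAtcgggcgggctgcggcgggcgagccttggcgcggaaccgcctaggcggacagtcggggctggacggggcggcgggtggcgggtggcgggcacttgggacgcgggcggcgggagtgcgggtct
Top2a: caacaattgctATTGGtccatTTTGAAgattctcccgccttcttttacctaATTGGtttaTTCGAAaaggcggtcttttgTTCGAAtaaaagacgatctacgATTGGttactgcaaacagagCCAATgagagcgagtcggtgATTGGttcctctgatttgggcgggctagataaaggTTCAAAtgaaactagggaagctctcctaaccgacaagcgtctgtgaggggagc
Ube2c: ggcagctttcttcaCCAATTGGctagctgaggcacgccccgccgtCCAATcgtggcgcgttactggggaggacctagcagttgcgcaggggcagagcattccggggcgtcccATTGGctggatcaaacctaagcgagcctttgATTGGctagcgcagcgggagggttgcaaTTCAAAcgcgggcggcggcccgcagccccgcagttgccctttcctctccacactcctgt
Cdk1: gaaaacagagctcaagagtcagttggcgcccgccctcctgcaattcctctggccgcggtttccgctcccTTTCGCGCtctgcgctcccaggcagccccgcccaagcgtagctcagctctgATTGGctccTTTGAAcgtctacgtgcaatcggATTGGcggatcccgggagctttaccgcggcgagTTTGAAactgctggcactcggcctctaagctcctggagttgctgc
Ccnb2: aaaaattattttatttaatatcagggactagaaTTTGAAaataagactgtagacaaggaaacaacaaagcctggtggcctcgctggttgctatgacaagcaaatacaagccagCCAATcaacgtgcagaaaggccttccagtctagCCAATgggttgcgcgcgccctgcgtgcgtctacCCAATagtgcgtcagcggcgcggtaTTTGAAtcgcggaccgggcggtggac
Cdc20: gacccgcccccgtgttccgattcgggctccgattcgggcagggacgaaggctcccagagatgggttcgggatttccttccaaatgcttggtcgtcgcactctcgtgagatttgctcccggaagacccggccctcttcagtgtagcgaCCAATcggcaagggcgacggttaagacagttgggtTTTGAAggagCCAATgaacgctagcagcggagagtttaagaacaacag
The replication promoters shown lie at chr8:75109309-75109538 on the plus strand (Mcm5) and chr1:128359676-128359905 on the minus strand (Mcm6).
Mcm5: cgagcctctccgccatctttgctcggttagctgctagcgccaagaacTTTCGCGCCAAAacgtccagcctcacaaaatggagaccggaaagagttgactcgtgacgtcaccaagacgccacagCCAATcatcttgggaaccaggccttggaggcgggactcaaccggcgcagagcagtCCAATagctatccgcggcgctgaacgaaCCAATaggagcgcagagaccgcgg
Mcm6: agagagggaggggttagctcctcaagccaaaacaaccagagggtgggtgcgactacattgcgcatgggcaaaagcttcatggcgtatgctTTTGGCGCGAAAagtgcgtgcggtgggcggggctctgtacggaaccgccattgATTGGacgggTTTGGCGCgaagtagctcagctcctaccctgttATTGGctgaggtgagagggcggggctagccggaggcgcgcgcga
In Mcm5 and Mcm6 a pair of E2F matches on opposite strands overlaps, and in Ube2c a pair of CCAAT matches does.

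The classes differed in what these windows held. A CHR match stood in the promoter of 16 of 21 mitosis genes with a promoter in the table (76.2%) and of 2 of 11 replication genes (18.2%), against 21.7% of all 27025 genes with a promoter there. All 16 of those mitosis genes also had a CCAAT match, a combination found in 9.65% of all genes. CCAAT alone was common in both classes, in 19 of 21 mitosis genes (90.5%) and 8 of 11 replication genes (72.7%), against 41.1% of all genes. An E2F match stood in 5 of 11 replication genes (45.5%), namely Mcm3, Mcm5, Mcm6, Mcm7 and Lig1, and in 1 of 21 mitosis genes (4.76%), Cdk1, against 2.61% of all genes. These matches are descriptions of letters in a window and not of bound sites. Aurkb, Ccna2, Mcm4, Smc4, Stmn1 and Tpx2 had no entry in the table.

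In the recipients of ALDHbr cells, neither replication nor mitosis RNA differed from that in the recipients of ALDHdim cells by more than the spread between libraries. The replication genes summed to 287, 246, 365, 378 and 433 CPM in ALDHbr libraries 1 to 5 and to 378, 210.4, 294, 341 and 399 CPM in ALDHdim libraries 1 to 5. Their means were 342 ± 74.6 and 325 ± 75.4 CPM (SD, n = 5 each). The groups overlapped almost completely, with library 2 lowest in each. For the mitosis genes the sums were 428, 301, 626, 721 and 1018 CPM in ALDHbr libraries 1 to 5, and 701, 319, 629, 572 and 729.6 CPM in ALDHdim libraries 1 to 5. Their means were 619 ± 277 and 590.3 ± 164 CPM (SD, n = 5 each). Here the 5 ALDHbr libraries spanned the ALDHdim ones, with library 2 below all ALDHdim libraries and library 5 above them. In bulk tissue, fewer dividing cells and less of this RNA per dividing cell cannot be told apart.

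**Figure D1:**
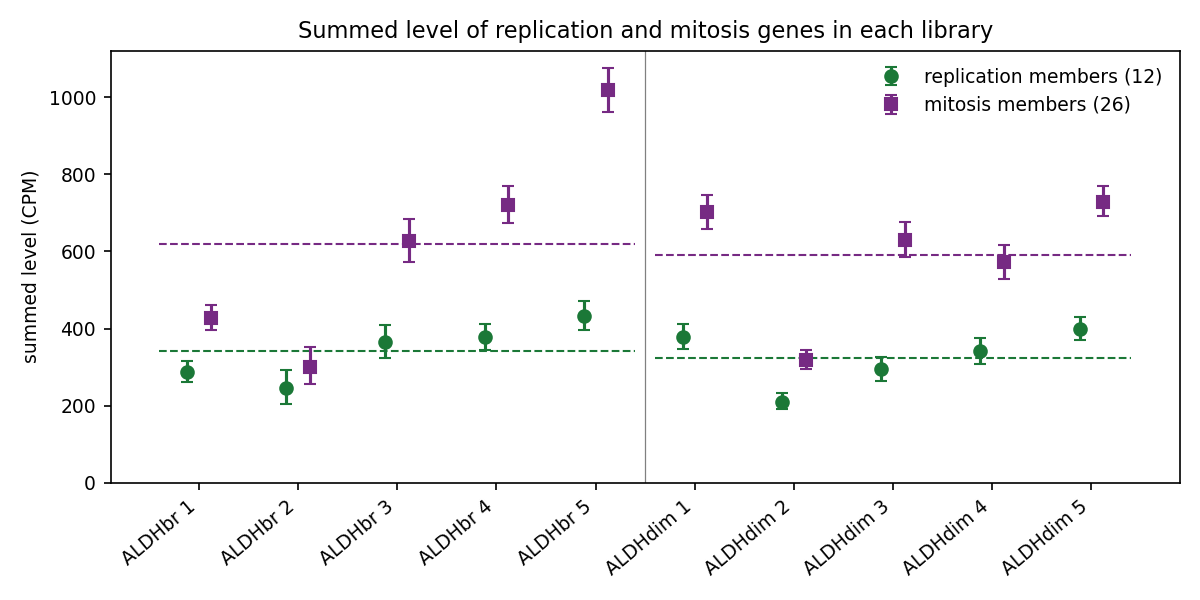
Summed level in CPM of the 12 replication and 26 mitosis genes in each of the 10 libraries; points are libraries, bars the exact Poisson 95% intervals of the summed counts (counting error only), and dashed lines the group means. Both libraries numbered 2 sit low in both classes, and the mitosis sum runs from 301 to 1018 CPM while the replication sum runs from 210.4 to 433 CPM.

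All 12 replication genes and 21 of the 26 mitosis genes had enough counts to enter the test. With edgeR's quasi-likelihood test and Benjamini-Hochberg adjustment at 0.05, 0 of these 33 genes passed in either direction, beside 0 of all 10844 genes tested (0%). DESeq2 also called 0 of the 33. None of the 33 had an unadjusted p under 0.05 in either tool, whereas 402 of all tested genes did in edgeR (3.71%) and 314 in DESeq2. The ALDHbr and ALDHdim libraries overlapped for all 38 genes, while 58 of the 10844 tested genes did not overlap (0.535%). The adjusted p of edgeR's quasi-likelihood test was 0.999 for every one of the 33 genes. A p above the threshold does not show that the levels were the same, and the intervals below give what size of difference remains possible.

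Most edgeR estimates were higher in the ALDHbr recipients in both classes. In the replication class 9 of 12 log2 fold changes (ALDHbr over ALDHdim) were above 0 and 3 below, with a median of 0.11. Of the 21 tested mitosis genes, 19 were above 0 and 2 below, with a median of 0.17. Over all tested genes 5628 were above and 5216 below, with a median of 0.01. The members follow one another over libraries, so their signs are not separate observations. The direction also depended on the measure. Cdk1, Ccna2, Cdc20 and Mcm3 had estimates above 0 but a lower mean CPM in the ALDHbr libraries. Log2 CPM centred on each gene's mean averaged -0.02 in ALDHbr and 0.02 in ALDHdim libraries over all mitosis genes. For the replication genes it averaged 0.02 and -0.02. The medians rested on single libraries. Without ALDHbr library 5 the mitosis median was -0.21 and the replication median -0.02, and without ALDHdim library 2 both were -0.02.

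**Figure D2:**
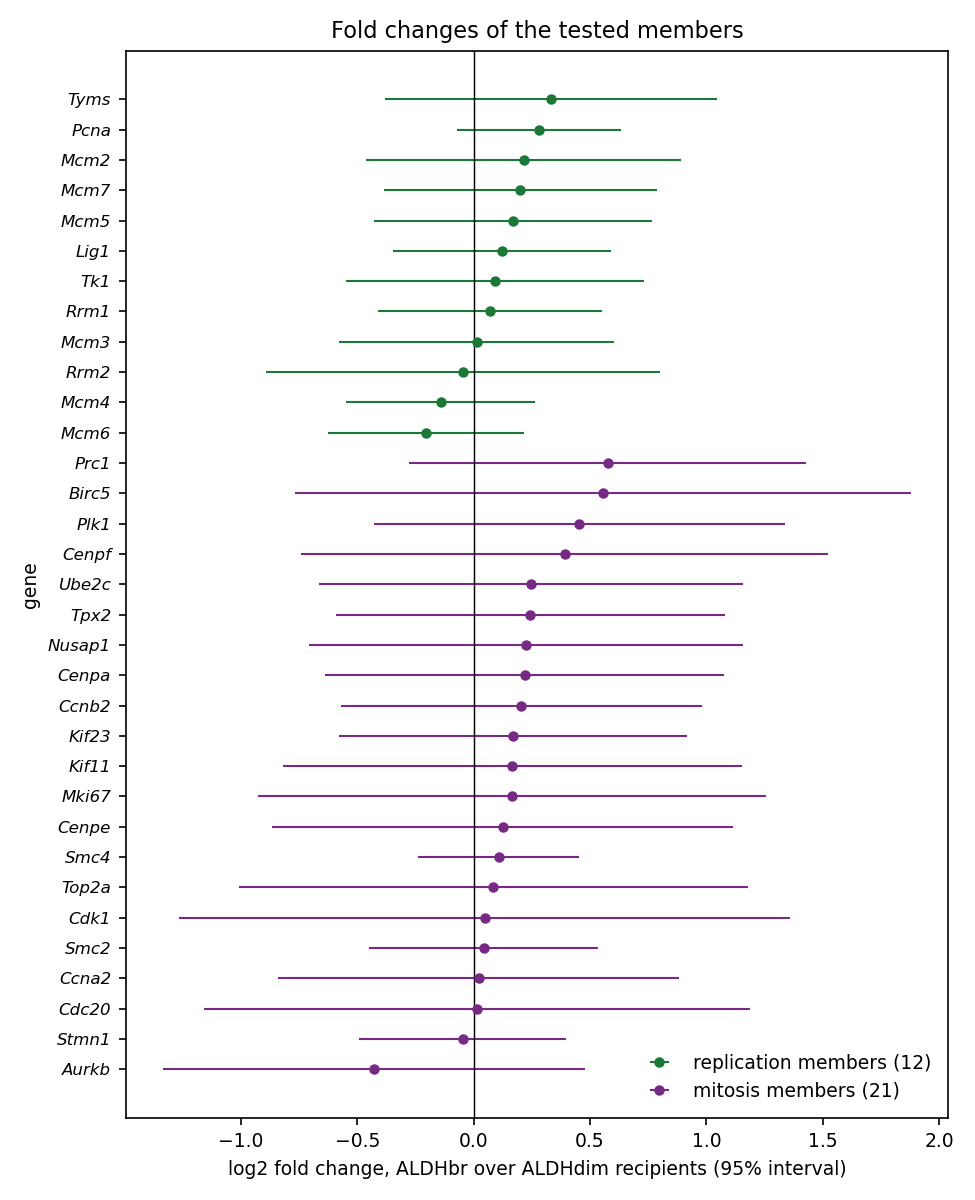
Log2 fold change (ALDHbr over ALDHdim) of the 12 replication and 21 tested mitosis genes, as points with 95% intervals from edgeR. Every interval crosses 0, and those of most mitosis genes are wider than those of the replication genes.

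Among the replication genes, the sliding clamp gene Pcna (chr2:132249162-132253314, minus strand) was at 67.8, 84.1, 106, 92.0 and 114 CPM in ALDHbr libraries 1 to 5. In ALDHdim libraries 1 to 5 it was at 89.4, 54.0, 84.2, 74.1 and 80.8 CPM. Of the 5 ALDHbr libraries, 3 lay above every ALDHdim library and library 1 lay below all but ALDHdim library 2. Its means were 92.8 ± 18.3 and 76.5 ± 13.8 CPM (SD, n = 5 each). The log2 fold change of 0.28 (SE 0.17) had the smallest unadjusted p of all members, 0.110, and its 95% interval ran from 0.952-fold to 1.55-fold. A Pcna pseudogene, Pcna-ps2, is in the table as well, so the split of reads between them is uncertain. Lig1, the ligase that seals the lagging strand, ranged from 13.6 to 24.8 CPM, and overlaps Zswim9 on the opposite strand.

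The 6 genes of the MCM helicase ring gave estimates of both signs. Mcm4 (chr16:15623897-15637400, minus strand) was at 22.2, 27.4, 31.0, 25.96 and 21.7 CPM in ALDHbr libraries 1 to 5, and at 33.4, 26.7, 20.4, 34.5 and 24.2 CPM in the ALDHdim libraries. It was the steadiest member, with a biological coefficient of variation, the spread between libraries of a group beyond counting error, of 14.3%. Its lowest library was ALDHdim library 3, not a library numbered 2. Its log2 fold change was -0.14 (SE 0.19).

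Mcm6 (chr1:128331590-128359664, minus strand), whose promoter with 3 E2F matches is printed above, was at 29.8, 17.6, 28.5, 32.3 and 35.8 CPM in ALDHbr libraries 1 to 5. Its ALDHdim libraries 1 to 5 stood at 34.1, 25.2, 31.5, 34.5 and 46.1 CPM. The lowest value was in ALDHbr library 2 and the highest in ALDHdim library 5. Its log2 fold change of -0.21 (SE 0.20) was the lowest of the replication class, and the interval ran from 0.647-fold to 1.16-fold. Mcm2 ranged from 5.55 to 19.4 CPM, Mcm3 from 9.78 to 34.1 CPM, Mcm5 from 10.1 to 29.1 CPM and Mcm7 from 9.78 to 28.3 CPM. Estimates for these 4 lay between 0.01 and 0.22 on the log2 scale, opposite in sign to those of Mcm4 and Mcm6. Mcm7 shares exon positions with Cops6 and Ap4m1 on the opposite strand, and the strand setting of the counting was not stated. It also overlaps the microRNA genes Mir25 and Mir93 on its own strand.

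The genes of nucleotide supply gave small estimates with differing spread. Rrm1 (chr7:102441695-102469771, plus strand), the large subunit of ribonucleotide reductase, was at 32.3, 27.4, 45.3, 39.3 and 46.6 CPM in ALDHbr libraries 1 to 5. It was at 37.6, 23.2, 29.8, 35.4 and 57.1 CPM in ALDHdim libraries 1 to 5, where library 5 was the highest of all 10 and library 2 the lowest. The estimate was 0.07 on the log2 scale (SE 0.23). Rrm2, the small subunit whose RNA is restricted to S phase, had the widest spread of the class at 39.7%, from 10.1 CPM in ALDHdim library 2 to 47.5 CPM in ALDHbr library 5. The spread of Rrm1 was 22.3%.

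Tyms (chr5:30058202-30073617, minus strand), which makes thymidylate, had the highest fold change of the replication class. It stood at 13.3, 13.7, 27.2, 28.3 and 30.8 CPM in ALDHbr libraries 1 to 5 and at 22.7, 7.06, 17.0, 16.8 and 28.0 CPM in ALDHdim libraries 1 to 5. In each group 1 or 2 libraries were low, and the ranges overlapped. An estimate of 0.33 on the log2 scale (SE 0.34) came with an interval from 0.768-fold to 2.06-fold. Tk1, the thymidine kinase of the salvage route, ranged from 3.91 CPM in ALDHbr library 2 to 20.8 CPM in ALDHbr library 5, and overlaps Afmid on the opposite strand.

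Among the mitosis genes, Mki67 (chr7:135689784-135716361, minus strand), which encodes the Ki-67 protein on the surface of mitotic chromosomes, is the usual marker of cycling cells. In ALDHbr libraries 1 to 5 it was at 25.97, 5.87, 23.3, 22.8 and 58.3 CPM, and in ALDHdim libraries 1 to 5 at 28.4, 6.56, 23.0, 32.8 and 40.7 CPM. The lowest values of both groups were those of library 2 and the highest those of library 5. Means were 27.2 ± 19.1 and 26.3 ± 12.8 CPM (SD, n = 5 each), and the highest library held 9.94 times the lowest. That lowest value rested on 3 counts. Between the groups the log2 fold change was 0.16 (SE 0.50), and the interval from 0.525-fold to 2.39-fold includes a 2-fold difference. Without ALDHbr library 5 the estimate was -0.30, and without ALDHbr libraries 3 and 5 it was -0.33.

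Top2a (chr11:98992943-99024189, minus strand), the topoisomerase that untangles sister chromatids, repeated the pattern of Mki67. Its values were 34.2, 13.7, 45.3, 55.1 and 103 CPM in ALDHbr libraries 1 to 5 and 66.7, 15.6, 56.1, 37.0 and 73.6 CPM in ALDHdim libraries 1 to 5. Library 2 was again the lowest and library 5 the highest of each group. For the groups, the log2 fold change was 0.09 (SE 0.49) with an interval from 0.497-fold to 2.26-fold. Top2a overlaps Gm23451 on the same strand.

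The condensin subunits Smc4 and Smc2, which compact mitotic chromosomes, varied much less. Smc4 (chr3:69004738-69034623, plus strand) was at 140.0, 131, 182, 206 and 236 CPM in ALDHbr libraries 1 to 5 and at 160.4, 132, 193, 179 and 173 CPM in ALDHdim libraries 1 to 5. Smc2 (chr4:52439243-52488260, plus strand) was at 35.5, 37.2, 58.2, 45.6 and 85.8 CPM in the ALDHbr libraries and at 53.9, 36.3, 50.2, 49.7 and 67.0 CPM in the ALDHdim libraries. From the lowest to the highest library Smc4 differed 1.80-fold and Smc2 2.42-fold, against 7.54-fold for Top2a. Their log2 fold changes were 0.11 (SE 0.16) and 0.04 (SE 0.23). The interval of Smc4, from 0.848-fold to 1.37-fold, was the narrowest of the mitosis class.

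For the mitotic kinase genes Cdk1 and Plk1 and the cyclin genes Ccna2 and Ccnb2, both libraries numbered 2 lay below the other 8, while for Ccnb1 and Cks2 only ALDHbr library 2 did. Cdk1 ran from 2.52 CPM in ALDHdim library 2 to 40.8 CPM in ALDHbr library 5, a 16.2-fold range that was the widest of the members with counts in every library. Its lowest value rested on 5 counts. Ccna2 ranged from 5.87 to 32.5 CPM, Ccnb2 from 5.04 to 23.6 CPM and Ccnb1 from 1.96 to 15.8 CPM. The polo-like kinase gene Plk1 ranged from 1.51 to 11.0 CPM, and Cks2, whose product binds CDK1, from 1.96 to 9.16 CPM. Ccnb1 and Cks2 were too low to be tested, and Ccnb1 and Ccnb2 each have a pseudogene in the table. Log2 fold changes of the tested members of this group were 0.05 for Cdk1, 0.02 for Ccna2, 0.20 for Ccnb2 and 0.45 for Plk1, none of which passed the test.

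The chromosomal passenger complex, which corrects faulty attachments of chromosomes, held genes with estimates of opposite sign. Birc5 (chr11:117849251-117855743, plus strand), or survivin, was at 9.50, 0, 16.8, 25.96 and 24.2 CPM in ALDHbr libraries 1 to 5 and at 21.3, 1.51, 8.51, 10.1 and 15.4 CPM in ALDHdim libraries 1 to 5. Apart from the libraries numbered 2, the groups ran from 9.50 to 25.96 and from 8.51 to 21.3 CPM. Its log2 fold change was 0.56 (SE 0.60) with the widest interval of all members, 0.587-fold to 3.68-fold.

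The kinase of the same complex, Aurkb (chr11:69045647-69051664, plus strand), was at 3.17, 3.91, 3.88, 9.44 and 9.16 CPM in ALDHbr libraries 1 to 5 and at 10.6, 2.52, 10.2, 7.58 and 11.5 CPM in ALDHdim libraries 1 to 5. Of the ALDHbr libraries 3 were low, and of the ALDHdim libraries only library 2 was. Its log2 fold change of -0.43 (SE 0.43) was the lowest of the tested members. The estimates of Birc5 and Aurkb were each smaller than their SE. Aurka, the spindle pole kinase, was too low to be tested, at 0 in ALDHbr library 2 and up to 9.23 CPM in ALDHdim library 1.

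Spindle genes gave the highest estimate. Prc1 (chr7:80294450-80316259, plus strand), which bundles the microtubules between the separating chromosomes, was at 4.43, 3.91, 10.3, 8.65 and 15.8 CPM in ALDHbr libraries 1 to 5 and at 3.55, 5.04, 8.51, 3.37 and 8.79 CPM in the ALDHdim libraries. Only ALDHbr libraries 3 and 5 lay above every ALDHdim library. The log2 fold change of 0.58 (SE 0.40) was the highest of the tested members and had the smallest unadjusted p of the mitosis class, 0.173 in edgeR's quasi-likelihood test. Without ALDHbr library 5 the estimate was 0.21, and without ALDHbr libraries 3 and 5 it was 0.01. Prc1 overlaps Rccd1 on the opposite strand.

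Among other spindle members, both libraries numbered 2 lay below the other 8 for Kif11, Kif23 and Nusap1, and for Tpx2 only ALDHdim library 2 did. The motor genes Kif11 and Kif23 ranged from 1.96 to 18.1 CPM and from 5.87 to 32.5 CPM. Tpx2, which helps microtubules form around chromosomes, ranged from 3.53 to 18.1 CPM, and the microtubule-binding Nusap1 from 1.96 to 19.4 CPM. Stmn1 (chr4:134468320-134473843, plus strand), which destabilises microtubules and is also expressed in neurons and haematopoietic cells, was not low in either library numbered 2. It was at 22.2, 31.3, 18.1, 29.1 and 38.3 CPM in ALDHbr libraries 1 to 5 and at 35.5, 32.3, 28.9, 23.6 and 23.1 CPM in ALDHdim libraries 1 to 5. Its lowest library was ALDHbr library 3, and both libraries numbered 2 were among the 4 highest. Its log2 fold change was -0.05 (SE 0.21). Stmn1 overlaps Gm23634 on the same strand.

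Kinetochore, checkpoint and exit genes completed the class. Cenpa, the histone of the centromere, ranged from 9.78 to 53.3 CPM, the kinetochore motor gene Cenpe from 3.91 to 25.8 CPM and Cenpf from 4.54 to 47.5 CPM. The checkpoint kinase genes Bub1 and Bub1b ranged from 2.02 to 15.8 CPM and from 1.96 to 14.2 CPM, with too few counts for the test. Cdc20, the activator of the ubiquitin ligase APC/C, ranged from 1.96 to 20.5 CPM, and its ubiquitin-conjugating enzyme gene Ube2c from 7.82 to 54.1 CPM. For Cdc20 and Ube2c, genes on the opposite strand (Elovl1 and Tnnc2) overlap the exons. Ccna2, Nusap1 and Plk1 likewise share exon positions with genes on the opposite strand (Exosc9, Oip5 and Gm44985). The 5 untested members had between 63 and 113 counts over all 10 libraries. Mean CPM was lower in the ALDHbr than in the ALDHdim libraries for Aurka (3.96 against 6.44) and Bub1b (6.55 against 10.0). It was higher for Bub1 (7.76 against 5.85) and nearly equal for Ccnb1 (7.31 against 7.34) and Cks2 (5.01 in each group).

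**Figure D3:**
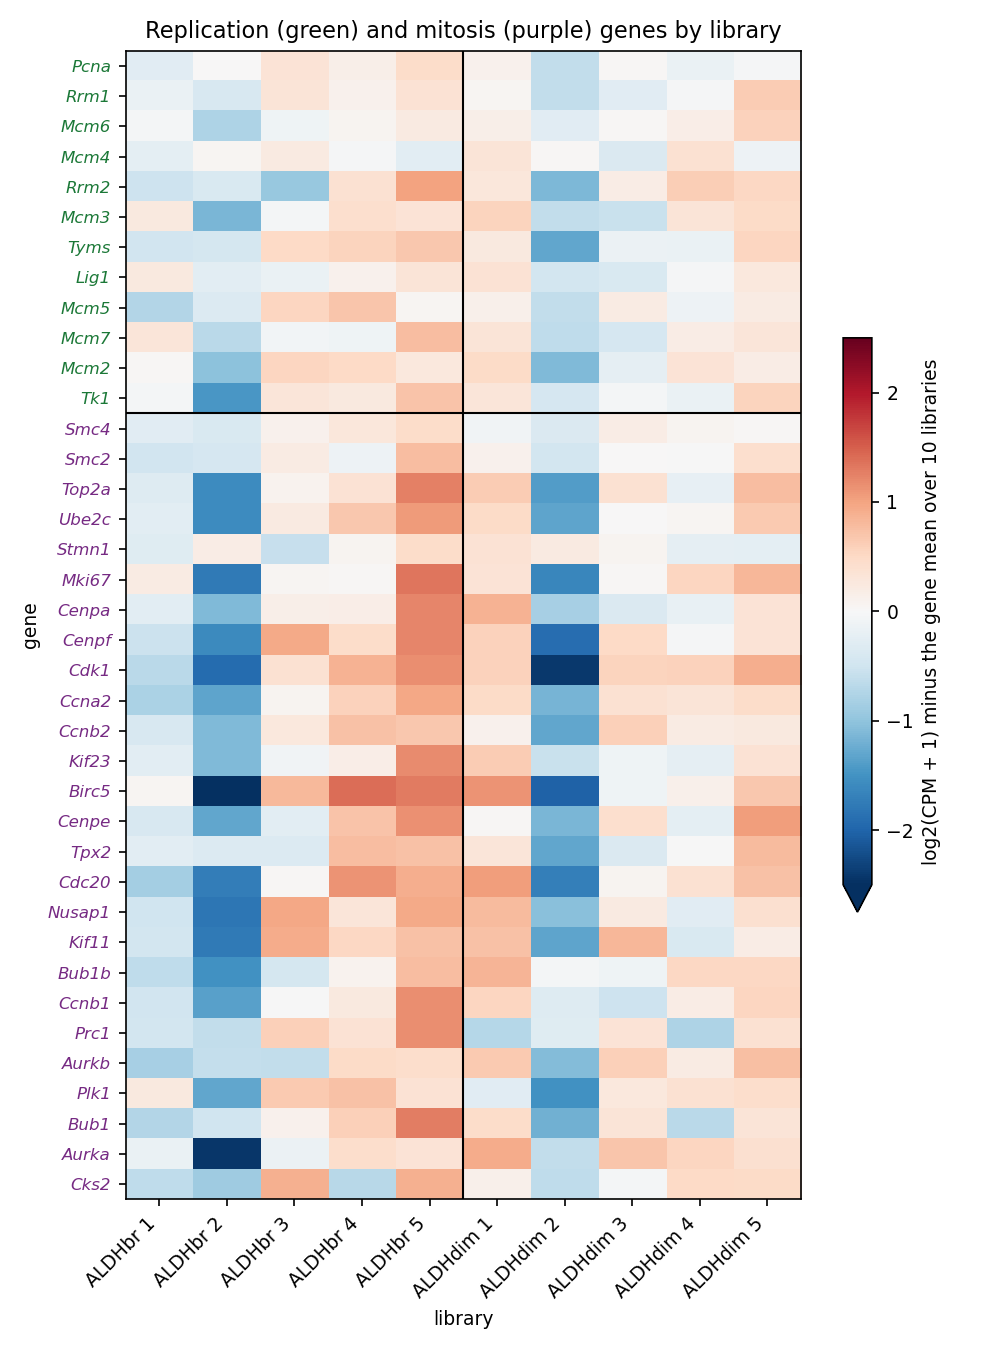
Each row is 1 of the 38 genes (replication above the line, mitosis below) and each column 1 of the 10 libraries; colour is log2(CPM + 1) minus the gene's mean over the 10 libraries, with values under the scale drawn in its darkest blue. The columns of ALDHbr library 2 and ALDHdim library 2 are blue for most rows, while Mcm4 and Stmn1 are not.

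The libraries themselves differed more than the groups. One of the libraries numbered 2 was the lowest for 10 of the 12 replication genes, all but Mcm4 and Mcm5, and for 23 of the 26 mitosis genes, all but Stmn1, Prc1 and Smc2. Both of them lay below all other 8 libraries for 6 replication genes and 17 mitosis genes. The highest library was ALDHbr library 5 for 5 replication and 16 mitosis genes. ALDHbr library 2 is the shallowest of the 10 libraries and ALDHdim library 2 the deepest. Of the 38 genes, 36 were detected in ALDHbr library 2, where Birc5 and Aurka had 0 counts, which allows up to 3 counts or 5.87 CPM there. Other members had few counts in it, with 3 for Mki67, 2 for Cdk1 and 1 each for Ccnb1, Cks2, Plk1, Cdc20, Nusap1, Kif11 and Bub1b. Their levels, fold ranges and order in that library therefore rest on few reads. In each other library all 38 were detected.

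The mitosis class varied over a wider range than the replication class. From the lowest to the highest of the 10 libraries, the summed level differed 3.38-fold for mitosis and 2.06-fold for replication, and without Smc2 and Smc4 the mitosis genes differed 5.24-fold. Without the libraries numbered 2, the ratios over the remaining 8 libraries were 2.38 for mitosis and 1.51 for replication. The means were then 698 ± 246 CPM in ALDHbr and 658 ± 71.3 CPM in ALDHdim for mitosis, and 366 ± 60.3 and 353 ± 46.1 CPM for replication (SD, n = 4 each). Among these 8, the lowest sum of both classes was that of ALDHbr library 1 and the highest that of ALDHbr library 5.

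Mitosis genes also took a different share of the members' counts from library to library. The share was 59.9%, 55.0%, 63.2%, 65.6% and 70.1% in ALDHbr libraries 1 to 5 and 65.0%, 60.3%, 68.1%, 62.6% and 64.6% in ALDHdim libraries 1 to 5. Group means were 62.8% ± 5.73 and 64.1% ± 2.92 (SD, n = 5 each), so the groups overlapped. At the extremes, the exact Clopper-Pearson 95% interval was 49.0% to 60.9% in ALDHbr library 2 and 67.9% to 72.3% in ALDHbr library 5, which do not overlap. Such intervals cover counting error only, since reads amplified by PCR are not all independent molecules. Without Smc2 and Smc4 the shares ran from 35.1% to 61.7% in ALDHbr and from 41.8% to 56.8% in ALDHdim recipients.

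**Figure D4:**
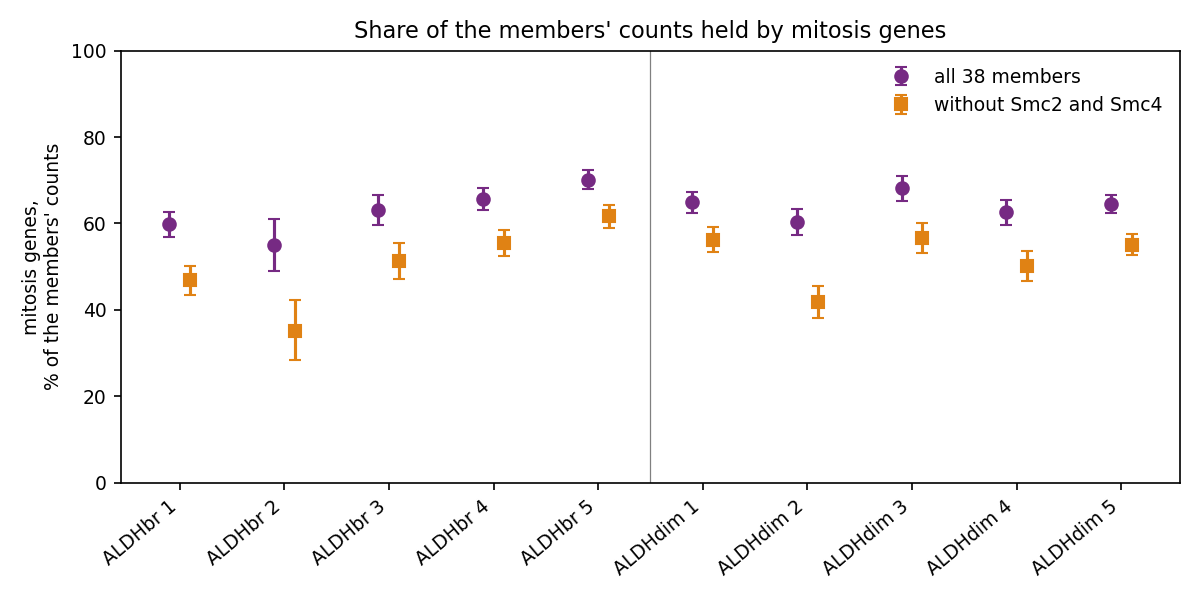
Mitosis genes as a percent of the counts of the members in each of the 10 libraries, for all 38 members and without Smc2 and Smc4; points are libraries and bars exact Clopper-Pearson 95% intervals. The share without Smc2 and Smc4 is lowest in both libraries numbered 2, at 35.1% and 41.8%.

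Within groups, the mitosis genes had the wider spread of the classes. The median biological coefficient of variation was 40.1% over the 21 tested mitosis genes, from 17.6% for Stmn1 to 67.5% for Birc5. For the 12 replication genes it was 23.1%, from 14.3% for Mcm4 to 39.7% for Rrm2, and for all tested genes 17.0%. All 21 mitosis genes and 10 of the replication genes were above that last value. Without the libraries numbered 2 the medians were 25.98% for mitosis, 17.4% for replication and 16.0% for all genes, with 20 of 21 and 7 of 12 members above it. Genes within the CPM range of the mitosis class had a median of 16.9% and those within the range of the replication class 16.5%. These ranges held 9972 and 7057 of the 10844 tested genes, so they are not a close match in level to the members.

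**Figure D5:**
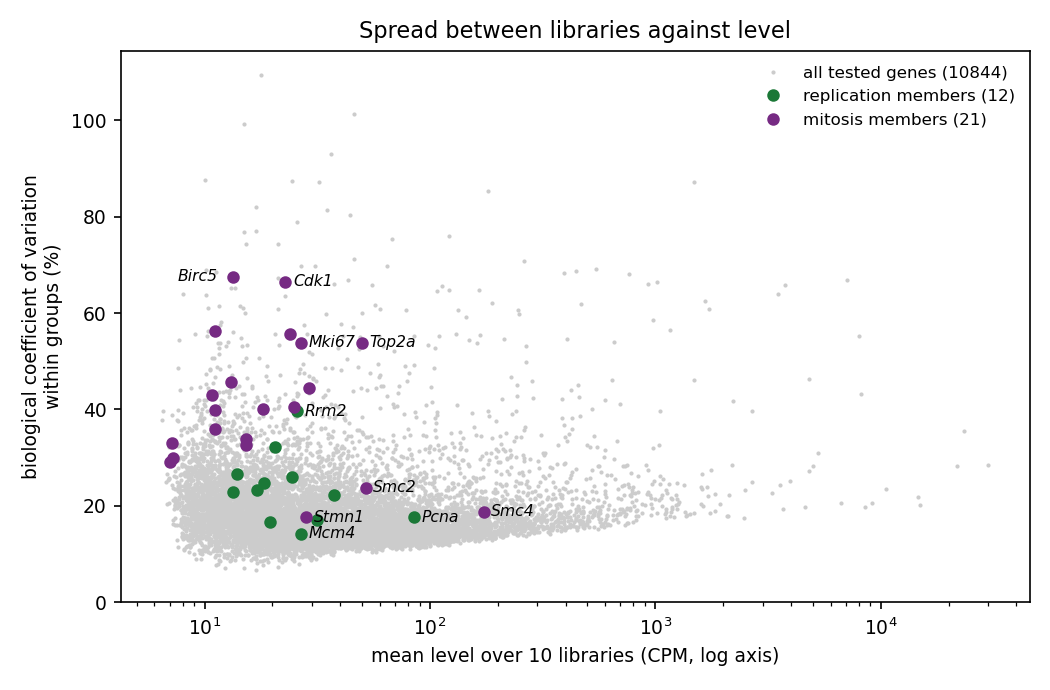
Biological coefficient of variation within groups (%) against mean CPM (log axis) for the 10844 tested genes (grey), the 12 replication and the 21 tested mitosis genes. Birc5, Cdk1, Mki67 and Top2a lie near the upper edge of the grey cloud, above 50%, while Stmn1, Smc4 and Smc2 lie lower, among the replication genes.

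This spread set the precision of the comparison. The 95% interval of the fold change lay wholly within 2-fold either way for 11 of 12 replication genes, for 6 of 21 mitosis genes and for 9818 of the 10844 tested genes. The median of the intervals' one-sided width was 0.59 on the log2 scale for replication, 0.91 for mitosis and 0.43 for all genes. For most mitosis genes a 2-fold difference in one direction or the other was therefore within the interval.

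The members varied together over the libraries. After the group means were taken out, the median Pearson r of log2 CPM over the 10 libraries was 0.83 over the 210 pairs of tested mitosis genes, 0.65 over the 66 pairs of replication genes and 0.72 over the 252 pairs between the classes. Over the 8 libraries without those numbered 2, it was 0.67, 0.42 and 0.47. These are descriptions of libraries that share their depth and composition among all genes. Mcm4 and Stmn1 stood outside, with a median r with the mitosis genes of -0.11 and 0.06. For Top2a and Ube2c it was 0.91 each. Birc5 and Nusap1, with no CHR or CCAAT match in the window, were at 0.88 and 0.85, and Prc1, with both, at 0.62. Mcm5, whose promoter is printed, was at 0.65. The other printed promoters were picked partly because their genes varied together, and a link between these motifs and the correlations was not tested.

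Summed markers of several other cell types stood apart in the same libraries. All 8 markers of monocytes and recruited macrophages were tested, and together they stood at 620.0 CPM in ALDHbr library 2 and 530.2 CPM in ALDHdim library 2, against 1406 to 4707 CPM in the other 8 libraries. Spp1, Gpnmb, C1qa, C1qb and C1qc lay below those 8 in both libraries. Spp1 was at 143 and 163 CPM against 731 to 3251 CPM. Ly6c2, Plac8 and Ccr2 lay within the range of those 8, with Ccr2 at 84.1 and 62.6 CPM. The leukocyte genes Ptprc and Cd68 summed to 131 and 174 CPM against 215 to 363 CPM. Cd68 was low in both libraries, at 62.6 and 48.9 CPM against 105 to 188 CPM. Ptprc was low only in ALDHbr library 2, at 68.5 CPM, and within the range of the other 8 in ALDHdim library 2, at 124.6 CPM. The summed markers of alveolar type 2 cells (8 of 8 tested) went the other way, at 50402 and 41348 CPM against 21354 to 37137 CPM. So did the sum of the 8 markers of alveolar macrophages (6 tested), at 1449 and 1099.7 CPM against 478 to 1045 CPM. Sftpc, Sftpb and Sftpa1 lay above the other 8 in both libraries, but Lamp3 and Abca3 lay within their range. Etv5 and Slc34a2 lay above it only in ALDHdim library 2, and Napsa only in ALDHbr library 2. Of the alveolar macrophage markers, Ear2 lay within range in both libraries, and Marco and Car4 only in ALDHdim library 2. By group, the monocyte and recruited macrophage sum ranged from 620.0 to 3554 CPM with ALDHbr cells and from 530.2 to 4707 CPM with ALDHdim cells. The 5 markers of transitional alveolar cells summed to 448 and 444 CPM, against 491 to 828 CPM. Of these, Krt8 and Sfn lay below the other 8 in both libraries, while Krt19 lay within their range. Cldn4 was below only in ALDHdim library 2 and Krt18 only in ALDHbr library 2. Neutrophil markers stood at 862 CPM in ALDHdim library 2 and granulocyte precursor markers at 129 CPM in ALDHbr library 2, against 79.5 to 253 and 16.5 to 63.7 CPM in the other 8. In the remaining library numbered 2 each of these sums, 198 and 29.8 CPM, lay within that range. Of the 5 granulocyte precursor markers only 1 was tested, and Mpo alone stood at 106 CPM in ALDHbr library 2. Prtn3, Ctsg and Elane were at 9.78, 7.82 and 5.87 CPM there, above the other 8 libraries but on few counts, and Ms4a3 was at 0. The endothelium sum of ALDHdim library 2, 2529 CPM, lay above that of the other 8 libraries, 996 to 2303 CPM. The fibroblast sum, 1475 and 1644 CPM, and the T cell sum, 90.0 and 87.3 CPM, lay within the ranges of the other 8 libraries, 1345 to 3797 and 71.0 to 132 CPM. Single fibroblast markers differed. Col3a1, at 194 and 206 CPM against 309 to 1014 CPM, Lum and Cthrc1 lay below the other 8 in both libraries. In ALDHbr library 2 only, Postn lay below and Dcn above them. Col1a1, Col1a2, Pdgfra and Tcf21 lay within range in both. Of the T cell markers, Cd3e, Cd3g and Trbc1 lay below the other 8 only in ALDHbr library 2. No marker of any list was at 0 in all libraries. The part of these cells in the members' levels was not tested.

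Other genes of the cell cycle also gave no call between the groups. Of 49 replication partners (origin, polymerase, clamp loader and histone supply genes) 32 were tested, 18 with estimates above and 14 below 0 and a median log2 fold change of 0.07. Of 64 mitosis partners 36 were tested, 23 above and 13 below, with a median of 0.14. For G1 cyclins, kinases and regulators it was 16 of 20 tested, 9 above and 7 below, with a median of 0.01. For the brakes of the cycle it was 21 of 24 tested, 13 above and 8 below, with a median of 0.18. In edgeR's quasi-likelihood test 0 genes of these lists passed the adjusted threshold in either direction, while 4, 2, 1 and 1 had an unadjusted p under 0.05. Over all tested genes that share was 3.71%, against 12.5% of the 32 replication partners, 5.56% of the 36 mitosis partners, 6.25% of the 16 G1 genes and 4.76% of the 21 brakes, each resting on 4 genes or fewer. The wider spread was again on the mitosis side, with a median coefficient of 30.7% for mitosis partners and 17.4% for replication partners.

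The partner of smallest p was Slbp, which binds the end of histone messages in S phase. It was at 12.7, 15.6, 16.8, 13.4 and 26.7 CPM in ALDHbr libraries 1 to 5 and at 15.6, 7.57, 4.25, 10.9 and 8.24 CPM in ALDHdim libraries 1 to 5. ALDHdim library 1 lay among the ALDHbr libraries and the other ALDHdim libraries below all of them. The log2 fold change was 0.87 (SE 0.32), with an unadjusted p of 0.0147 and an adjusted p of 0.999 in edgeR's quasi-likelihood test. Spc25, a kinetochore gene, had a log2 fold change of 0.90 (SE 0.39) and the smallest p of the mitosis partners, 0.0357 unadjusted.

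In the regulator lists, E2f4, a member of the E2F family that mostly represses, had a log2 fold change of -0.46 (SE 0.20). It was at 24.7, 13.7, 16.8, 25.96 and 27.5 CPM in ALDHbr libraries 1 to 5 and at 31.9, 36.3, 34.0, 28.6 and 25.8 CPM in ALDHdim libraries 1 to 5, so that the groups overlapped in ALDHdim library 5. Cdkn2c, an inhibitor of the G1 kinases, was at 39.3, 48.9, 51.7, 43.3 and 52.5 CPM in ALDHbr libraries 1 to 5 and at 51.8, 32.3, 34.0, 25.3 and 29.7 CPM in ALDHdim libraries 1 to 5. ALDHdim library 1 alone lay within the ALDHbr range, and the log2 fold change was 0.43 (SE 0.19). Their unadjusted p were 0.0318 and 0.0369, and the adjusted p of edgeR's quasi-likelihood test was 0.999 for both. Rfc1, Hmgb2, Ccnd2 and Ccng1, picked as the gene with the highest mean CPM of each of the 4 lists, had log2 fold changes of -0.06, -0.01, -0.05 and 0.18.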

How the data were processed

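Total RNA of 10 lung samples was made into BRB-seq libraries, per the labels' protocols, with a UMI of 10 nt and a barcode of 9 nt in read 1 and 81 nt of insert in read 2. The authors deposited 1 table of raw counts per gene. The submitters' processing notes name HISAT2 2.2.1 (an aligner), featureCounts 2.0.1 (a counter), Trim Galore 0.6.7, UMI-tools, DESeq2 and the builds GRCm38 and GRCh38. Not given in the sources used here are the strand setting, the annotation release and whether counts were collapsed by UMI. Every sample column of the table was mapped by its name, and 0 per-sample columns were left unused.

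From the deposited counts, edgeR 4.0.16 in R 4.3.3 was run on all 10 libraries (trimmed mean of M values, filterByExpr with a minimum count of 10, robust quasi-likelihood fit, ALDHbr over ALDHdim, Benjamini-Hochberg over 10844 of 33347 genes, which held 97.3% of counts). The common biological coefficient of variation was 19.7%. Log2 CPM used a prior count of 2. No pair of libraries agreed within sampling noise. The fitting code was tested on simulated data.

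Members and lists were chosen with earlier results of these data known, and no test was made of a list as a whole. Genes described singly were Mki67, Top2a and Pcna, and in each class the 3 of highest mean CPM, the 2 of highest and the 2 of lowest fold change and the 1 of smallest p, with the gene of highest mean and of smallest p from each other list. Rrm2, Cdk1 and other members given by their range were described to account for every member. Positions are those of GENCODE on GRCm38. Alternatives were DESeq2 1.42.0, its size factors within edgeR, no filter, a replicate block, each library left out, ALDHbr libraries 3 and 5 left out, both libraries numbered 2 left out, other memberships of the classes and thinning to the smallest library. Leaving out Smc2 and Smc4, or Pcna, was chosen after seeing the data.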

Additional observations from a re-analysis of the deposited data

How the results depend on the processing

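Without a filter on low counts, 185 of 33347 genes passed the adjusted threshold in edgeR, none of them a member, against 0 of 10844 with it. No other alternative gave a called gene. The median log2 fold change of the tested mitosis genes lay between -0.21 (without ALDHbr library 5) and 0.32 when 1 library was left out, that of the replication genes between -0.02 (without ALDHdim library 2) and 0.26, and their difference between -0.19 and 0.16. Without ALDHbr libraries 3 and 5, which detected the most genes, the medians were -0.28 and -0.01, and without both libraries numbered 2 they were 0.06 and 0.07. Of the 13 members described singly, Mki67, Top2a, Rrm1, Stmn1, Smc2 and Smc4 changed the sign of their estimate under 2 to 5 of 15 alternatives. With the replicate number as a replicate block, 0 genes and 0 members passed, and the medians were 0.05 for mitosis and 0.06 for replication. In edgeR's quasi-likelihood test the block gave 727 genes with an unadjusted p under 0.05, against 402 without it. The smallest adjusted p of a member was then 0.780. Without ALDHbr library 1 there were 1109 such genes, 1 of them a member, and with any other single library left out between 266 and 462. Residuals of libraries with the same number correlated between 0.06 and 0.37, over 0.1 in 4 of 5 pairs, and 7 of 10 libraries correlated best with their own number. This hints at shared numbering, but 1 pair was under 0.1 and the labels name nothing that the numbers share, so the fit without the block is the one reported. Depth limits Ccnb1, Aurka, Bub1, Bub1b and Cks2 most, and thinning all libraries to 588063 counts left a mean of 37.4 detected members per library.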

Other observations

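Genes outside the list that tracked the mean level of the tested members over the 10 libraries were taken by Pearson r, as a description of libraries that share depth and composition, and with no test. The 10 highest had r between 0.94 and 0.97, and between 0.75 and 0.89 over the 8 libraries without those numbered 2. They were Ckap2, Igf1, Ckap2l, H2ax, Rnf122, Tnip3, Mdk, B4galt7, Gpr183 and Mmp12. Ckap2 and Ckap2l are spindle genes and H2ax a histone gene, and these 3 were in the lists of other cell cycle genes. Mmp12, the macrophage elastase, was at 75.4, 25.4, 276, 192 and 329 CPM in ALDHbr libraries 1 to 5 and at 177, 10.1, 179, 221 and 315 CPM in ALDHdim libraries 1 to 5. Igf1, a growth factor made by macrophages and fibroblasts, was at 76.6, 33.3, 146, 158 and 235 CPM in ALDHbr libraries 1 to 5 and at 145, 40.4, 123, 173 and 180.2 CPM in ALDHdim libraries 1 to 5. Both genes were lowest in the libraries numbered 2 of their group and highest in library 5.

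The 10 genes that ran most opposite had r between -0.97 and -0.94, and between -0.95 and -0.78 over the 8 libraries. They were Stx12, Klf15, Acadm, Selenbp1, Inafm1, Cyp2b10, Ms4a4d, Cdo1, Atp7b and Zmym5. Klf15, a transcription factor induced by glucocorticoids, was at 70.9, 113, 29.8, 27.5 and 16.7 CPM in ALDHbr libraries 1 to 5 and at 29.8, 81.2, 31.5, 31.2 and 24.2 CPM in ALDHdim libraries 1 to 5. Cyp2b10, a cytochrome P450 gene, was at 232, 241, 116, 116 and 84.1 CPM in ALDHbr libraries 1 to 5 and at 129.9, 269, 149.7, 146 and 119.8 CPM in ALDHdim libraries 1 to 5. Selenbp1 and Acadm, an enzyme of fatty acid oxidation, were likewise highest in both libraries numbered 2, at 911 and 826 CPM and at 76.3 and 77.7 CPM. For neither set was a difference between ALDHbr and ALDHdim recipients found, since 0 of the 10844 tested genes passed edgeR's adjusted threshold, 402 having an unadjusted p under 0.05.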
